A study of Canis lupus familiaris with 2 samples.

Results

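The heat shock proteins and their J-domain cochaperones were compared between J3T-1 and J3T-2. Both are subclones derived from a single parental canine glioma cell. They are described as close in genetic background and different in invasion and angiogenesis. Both were grown in DMEM with 10% fetal bovine serum, penicillin and streptomycin, and the labels name no heat or other treatment of either. The members were all probe sets with exactly 1 gene symbol beginning with HSPA, HSPB, HSP90, HSPD, HSPE, HSPH or DNAJ. HSPA5, HSPA13, HSP90B1, DNAJB9, DNAJB11 and DNAJC3, chaperones of the secretory pathway, were left out of the set. This gave 123 probe sets for 57 genes, out of 29254 probe sets with 1 symbol for 15115 genes. RNA of each subclone was hybridized to 1 Affymetrix canine array. No difference below therefore has a replicate check, no test between the subclones was possible, and each subclone stands for 1 clone and 1 RNA sample.

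HSP70 proteins bind exposed hydrophobic stretches of unfolded clients in a cycle driven by ATP. J-domain proteins, named DNAJ, deliver clients to HSP70 and start ATP hydrolysis, while nucleotide exchange factors such as HSP110 and BAG proteins reset the cycle. HSP90 takes over partly folded clients such as kinases and steroid receptors, small heat shock proteins hold clients without using ATP, and the HSPD1 and HSPE1 chaperonin folds proteins inside mitochondria. Heat shock factors, chiefly HSF1, raise transcription of the inducible members under stress, and tumour cells often carry high levels of these chaperones.

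Values are MAS5 signals, a linear brightness per probe set in which mismatch probes are taken as background. Signals below the array's median, 19.0 in J3T-1 and 22.0 in J3T-2, were raised to that median, called the floor here. The brightest probe set stood for its gene, and the gene is called measured if either array put that probe set above the floor. Of the 57 genes, 43 were measured, 42 of them above the floor on both arrays and DNAJB5 in J3T-2 only. The 14 others had signals between 1.1 and 17.7 by their brightest probe set. The median log2 ratio, J3T-2 over J3T-1, of all 9433 measured genes was 0.17, a shift of the array median towards J3T-2, and folds below still contain it. Its size depends on the floor and on brightness. It was 0.15 with floors at the 25th or the 75th percentile and 0.08 with no floor. Over genes with a signal of at least 1000 on both arrays it was 0.09. The only error estimate is the disagreement between probe sets of the same gene. Its root mean square SD in log2 ratio was 0.25 over the 28 members with several probe sets over both floors and 0.26 over 4580 genes in all. It is technical and holds no spread between cultures. Glioma identity rested on few markers: the progenitor markers SOX2 (411.1 and 1191.0) and VIM (8129.9 and 7960.8) were well above the floor, as were the astrocyte transporter SLC1A3 (771.3 and 2396.3) and the gap junction gene GJA1 (721.8 and 291.5), whereas GFAP, AQP4 and S100B of the astrocytes, PTPRC, AIF1, ITGAM and CSF1R of leukocytes, PECAM1 of endothelium and EPCAM of epithelium were below it on both arrays. By list, 4 of 8 astrocyte, 1 of 5 oligodendroglial, 3 of 4 progenitor, 3 of 6 neuron, 3 of 7 leukocyte, 2 of 6 endothelial and 0 of 3 epithelial markers were measured. Of 6 pericyte and fibroblast markers, 4 were measured, the brightest being COL1A2 (3356.0 and 5736.0), above SOX2 and SLC1A3 on both arrays. ACTA2 (22.8 and 140.7) and COL1A1 (73.7 and 598.7) exceeded 2-fold towards J3T-2. So did SLC1A3, SOX2, the radial glia gene FABP7 (14.8, under the floor, and 82.1) and the neurofilament gene NEFL (120.3 and 1335.6), the last by 11.1-fold, while GJA1 exceeded 2-fold towards J3T-1. The neuron markers gave no common direction. By its brightest probe set TUBB3 passed 1.5-fold towards J3T-1, while its other probe set above both floors was higher in J3T-2. SYT1 was under the floor in J3T-1 and close to it in J3T-2. The part of all these markers in the results below was not tested.

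Most heat shock proteins and cochaperones had similar signals in the subclones. Only HSPA2 and DNAJB5 reached a 2-fold difference, 2 of 43 measured members (4.65%) where 10.8% of all measured genes did so in either direction. Both were higher in J3T-2, a side that held 7.28% of all genes. No member reached 2-fold on the J3T-1 side, which held 3.49% of all genes. The median log2 ratio of the members was 0.06 (range -0.88 to 2.65), against 0.17 for all measured genes. With log2 ratios centred on the median of all genes, HSPA2 alone passed 2-fold on the J3T-2 side and HSPB2 alone on the J3T-1 side, against 4.98% and 4.62% of all genes.

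A smaller limit of 1.5-fold, chosen after the values were seen, gives more detail. By it 34 of 43 members (79.1%) lay within 1.5-fold, as did 72.5% of all measured genes, the other 27.5% being further apart. The 7 on the J3T-2 side were HSPA2, DNAJB4, DNAJB5, DNAJC7, DNAJC9, DNAJC17 and DNAJC25, which is 16.3% of the members where 19.7% of all genes were called. On the J3T-1 side stood HSPB2 and DNAJB12, 4.65% of the members against 7.71% of all genes. After centring, these counts were 4 (HSPA2, DNAJB4, DNAJB5 and DNAJC17) and 4 (HSPB2, DNAJB12, DNAJC18 and HSPA4), with 13.3% and 11.6% of all genes called and 24.8% on both sides together. J3T-2 had the higher signal for 28 of 43 members (65.1%) and for 65.4% of all measured genes. After centring, 17 members lay above the median of all genes and 26 below it.

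**Figure D1:**
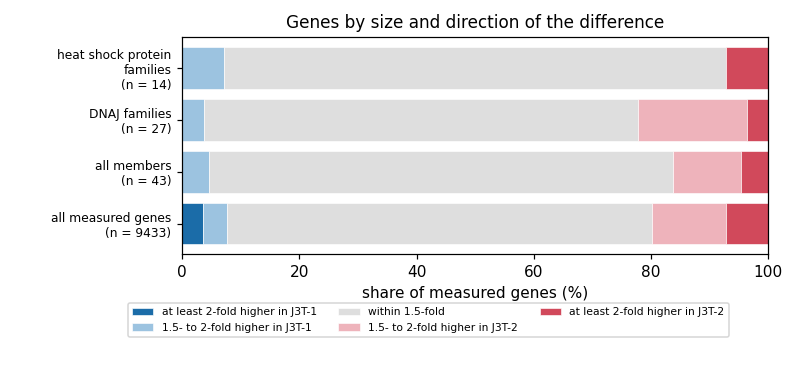
Share of measured genes (x axis, in percent) in 5 classes of size and direction of the difference, for the 14 measured heat shock proteins, the 27 measured DNAJ genes, all 43 members (HSPBP1 and HSPBAP1 are counted here only) and all 9433 measured genes. Of the 43 members 34 lie within 1.5-fold (79.1%, against 72.5% of all measured genes). Of the 9 others 6 come from the DNAJ families on the J3T-2 side. They are 22.2% of the DNAJ genes, near the 19.7% of all measured genes on that side.

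The core cytosolic machines had near-equal signals on the arrays. HSPA8, the constitutive HSP70 of the cytosol, gave 6966.4 (J3T-1) and 6608.4 (J3T-2). HSP90AA1, the inducible cytosolic HSP90, gave 5626.3 and 5952.7. HSP90AB1, its constitutive counterpart, gave 4189.9 and 4350.7, and its 4 probe sets over both floors had log2 ratios from 0.04 to 0.27. In these 3 genes the subclones were thus within 1.06-fold of each other by the brightest probe set. HSPD1, the folding chamber of the mitochondrial chaperonin, gave 4985.9 and 4997.7, a ratio of 1.002, and HSPE1, its lid, gave 3735.4 and 3675.2. Probe sets of HSPD1 ranged from -0.12 to 0.04 in log2 ratio. The HSPD1 and HSPE1 genes lie next to each other in the dog, and the subclones had nearly the same signal for both. The probe set of HSPE1 carries the suffix _x_at, which marks probes that can bind other sequences, and HSPA8, HSP90 and chaperonin genes have near-identical copies in mammalian genomes, so it is uncertain that each signal comes from the named gene alone.

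Among the other bright members, HSPB1, the stress-inducible small heat shock protein also called HSP27, gave 2847.3 in J3T-1 and 2966.7 in J3T-2. HSPH1, the HSP110 that exchanges nucleotide on HSP70, gave 1195.6 and 1379.9, and its 3 probe sets ranged from 0.01 to 0.22 in log2 ratio. HSPA4, a relative of HSP110 with the same task, gave 1480.9 and 1087.2, or 1.36-fold higher in J3T-1, and it lay furthest from equality of the bright members. That probe set has the suffix _s_at, and the other 2 gave no measured difference: one was at 21.8 and 19.0, at or near the floor, and one was below it on both arrays. Taking members with a signal of at least 1000 on both arrays, 8 of 8 lay within 1.5-fold. Bright genes in general differed little as well, since 7.96% of the 691 genes that bright were at least 1.5-fold apart, so equality of the bright chaperones is near the background.

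**Figure D2:**
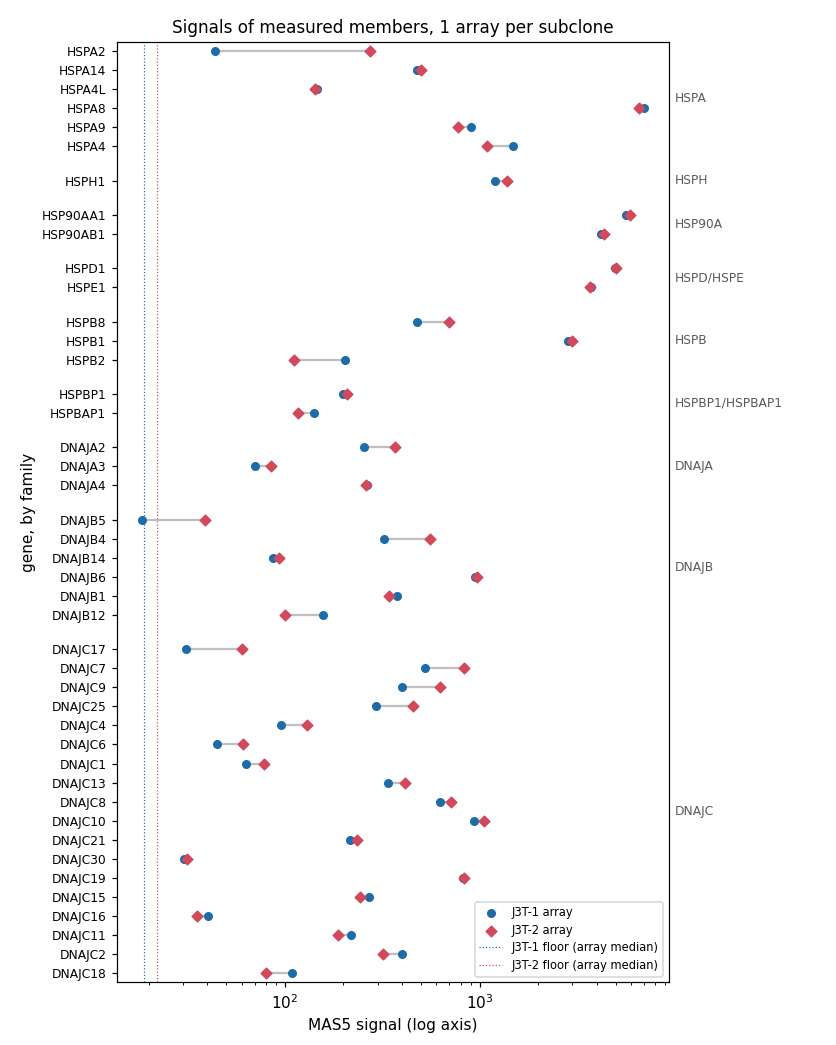
MAS5 signal (log x axis) of the 43 measured members by family, with a circle for the J3T-1 array, a diamond for the J3T-2 array and dotted lines at the floors of 19.0 and 22.0. The widest gap is that of HSPA2, from 43.7 to 273.8, while the circles and diamonds of HSPA8, HSP90AA1, HSP90AB1, HSPD1 and HSPE1 nearly coincide.

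Within the HSPA family HSPA2 stood apart. HSPA2, an HSP70 best known from sperm development, read 43.7 on the J3T-1 array and 273.8 on the J3T-2 array, a 6.27-fold difference and the largest of all members. Its log2 ratio of 2.65 compares with values from -0.45 to 0.05 for the other 5 measured HSPA genes. HSPA9, the mitochondrial HSP70 called mortalin, gave 908.8 and 775.3, with log2 ratios from -0.26 to 0.05 over its 3 probe sets, 2 of them higher in J3T-1. HSPA14, which works at the ribosome, gave 479.3 and 497.8, and HSPA4L, another HSP110 relative, gave 146.4 and 143.7. HSPA12A and HSPA12B, distant relatives, were below the floor. The family median was -0.05, below the 0.17 of all genes, and 5 of its 6 measured members lay below that value.

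The HSPA2 value rests on 1 probe set with the suffix _s_at, which marks probes shared by more than 1 transcript, so it has no independent second measurement on these arrays. With the floor at the 75th percentile of each array its J3T-1 signal fell under the floor, so the log2 ratio of 1.36 is only a lower bound. With no floor and a pseudocount of 16 the ratio was 2.28, against 2.65 in the main setting. An inducible HSP70 of the dog, listed under the symbol HSP70 with the synonym HSPA1 and therefore no member, had signals of 176.3 and 235.2, or 1.33-fold higher in J3T-2, also from a single _s_at probe set.

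Small heat shock proteins went in opposite directions. HSPB2, a small heat shock protein of muscle, gave 204.7 (J3T-1) and 111.5 (J3T-2), or 1.84-fold higher in J3T-1. Its other probe set gave 130.7 and 60.2, or 2.17-fold, in the same direction. HSPB8, which works with BAG3 in the selective removal of misfolded proteins, gave 479.2 in J3T-1 and 695.3 in J3T-2, or 1.45-fold higher in J3T-2. Its other 2 probe sets also favoured J3T-2, at 1.57-fold and 1.22-fold. With the array shift taken off, HSPB8 was 1.29-fold higher in J3T-2 and HSPB2 was 2.06-fold higher in J3T-1. HSPB1, described above, lay between them. HSPB3, HSPB6, HSPB7 and HSPB9, known from muscle or testis, were below the floor on both arrays.

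CRYAB, or alpha B-crystallin, is a small heat shock protein with another type of symbol and so no member, but its gene adjoins HSPB2. It read 1024.5 on the J3T-1 array and 406.4 on the J3T-2 array, or 2.52-fold higher in J3T-1, from 1 probe set with the suffix _s_at. The HSPB2 and CRYAB pair was therefore lower in J3T-2 at both genes. Among the 10 measured genes nearest to HSPB2, 5 on each side in the order of RefSeq, CRYAB was the only one to pass 1.5-fold on the J3T-1 side. The other neighbours had log2 ratios from -0.07 for DLAT to 1.19 for TIMM8B. The eye lens crystallin CRYAA was below the floor.

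HSPBP1 and HSPBAP1 share the first letters of the small heat shock proteins but are not of that kind. HSPBP1, a nucleotide exchange factor of HSP70, gave 198.4 and 207.7 by its brightest probe set, while its other 2 probe sets were 1.39-fold and 1.13-fold higher in J3T-1. HSPBAP1, a binding partner of HSPB1, gave 141.0 and 116.8 by one probe set and 19.3 and 31.5 by a dim one. No direction can be given for either, as their probe sets disagreed.

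**Figure D3:**
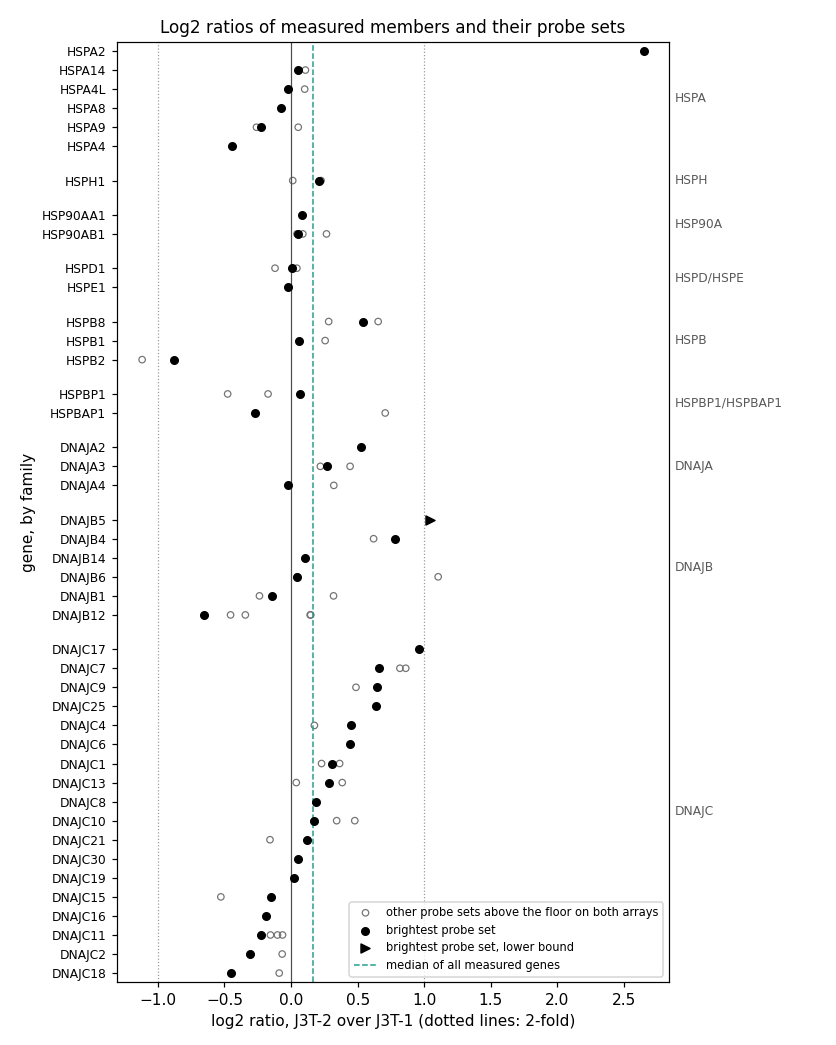
Log2 ratio of J3T-2 over J3T-1 (x axis) for the 43 measured members by family. Filled circles are the brightest probe set of a gene, the triangle is the lower bound of DNAJB5, open circles are other probe sets above both floors, dotted lines mark 2-fold and the dashed line the median of all measured genes at 0.17. HSPA2 lies alone at 2.65, and the probe sets of HSPB2 and DNAJC7 fall on 1 side of 0 each, while those of DNAJB12, HSPBP1 and HSPBAP1 straddle it.

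Of 27 measured J-domain cochaperones, 6 (22.2%) passed 1.5-fold on the J3T-2 side and 1 (3.70%), DNAJB12, on the J3T-1 side, where 19.7% and 7.71% of all measured genes did. After centring these counts were 3 and 2, where 13.3% and 11.6% of all measured genes passed. The shares of the DNAJ genes are thus near those of the array. Their median log2 ratio was 0.17, equal to that of all measured genes after rounding, against 0.03 for the 14 measured heat shock proteins, HSPBP1 and HSPBAP1 left out. After the shift of the array median was taken off, 14 of the 27 lay above 0 and 13 below. Of the 14 heat shock proteins, 11 lay under the median of all genes, but 8 did so with quantile normalization and 10 with loess. Among the 691 bright genes 441 lay under it as well, and 8 of the 14 heat shock proteins are bright by that limit. How DNAJ genes and heat shock proteins differ could not be tested with 1 array each.

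In class A, the members built like bacterial DnaJ, DNAJA2 of the cytosol gave 256.4 in J3T-1 and 369.5 in J3T-2, or 1.44-fold higher in J3T-2 by its only probe set. DNAJA3, the mitochondrial member, gave 70.4 and 84.7, and its 3 probe sets above both floors lay between 0.22 and 0.44 in log2 ratio. DNAJA4 gave 265.7 and 261.4, with its other probe set 1.25-fold higher in J3T-2. The class A median was 0.27 over 3 genes.

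Class B held members on either side. DNAJB4, a cytosolic partner of HSP70, gave 324.7 (J3T-1) and 556.5 (J3T-2), or 1.71-fold higher in J3T-2, with 1.54-fold by the second probe set. DNAJB5 gave 18.5 in J3T-1, under the floor, and 39.1 in J3T-2, so its difference is at least 2.06-fold. That bound rests on a dim _s_at probe set, and its other 2 probe sets were below the floor on both arrays. With no floor and a pseudocount of 16 its log2 ratio was 0.68, and with ratios centred on all genes its bound fell under 2-fold. In the opposite direction DNAJB12, an ER membrane protein used in the disposal of misfolded membrane proteins, gave 157.9 in J3T-1 and 100.4 in J3T-2, or 1.57-fold. Of the 5 probe sets of DNAJB12, 3 were higher in J3T-1 and 2 dimmer ones slightly higher in J3T-2. Without probe sets of the suffixes _x_at and _s_at its log2 ratio was 0.14, so the direction of DNAJB12 depends on the probe set.

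DNAJB1, the classic heat-inducible HSP40, gave 375.7 and 340.8, and its 3 probe sets above both floors ran from -0.24 to 0.32 in log2 ratio. DNAJB6, which keeps proteins with long glutamine repeats from aggregating, gave 945.3 and 972.8, and its next probe set was equally close, but a dim one gave 22.7 and 48.8, or 2.15-fold higher in J3T-2. DNAJB14, the ER relative of DNAJB12, gave 87.4 and 93.8. DNAJB3, DNAJB7, DNAJB8 and DNAJB13 did not count as measured. For DNAJB13, a protein of cilia and flagella, a probe set that was not the brightest by mean had 34.3 in J3T-1 and 2.3 in J3T-2, which is at least 1.56-fold higher in J3T-1.

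Class C, the members that share only the J domain, had 4 genes past 1.5-fold towards J3T-2 and none towards J3T-1, against 1 and 1 after centring (DNAJC17 and DNAJC18). The 4 of 18 measured are 22.2%, near the 19.7% of all genes. After centring, 13.3% of all genes passed on the J3T-2 side and 11.6% on the J3T-1 side. DNAJC7, which binds HSP70 and HSP90 and passes clients between them, read 523.9 on the J3T-1 array and 829.3 on the J3T-2 array, or 1.58-fold, and its other 2 probe sets gave 1.76-fold and 1.82-fold. DNAJC9, a cochaperone of histones, gave 401.3 and 626.0, or 1.56-fold, with 1.40-fold by its other probe set. DNAJC25, an ER membrane protein, gave 292.6 and 454.2, or 1.55-fold, from 1 probe set. DNAJC17, a nuclear protein linked to splicing, gave 31.1 and 60.4, or 1.94-fold, but both signals are close to the floor. Of these 4 genes, DNAJC7 and DNAJC9 had several probe sets and all of them pointed to J3T-2. With the array shift taken off, DNAJC7, DNAJC9 and DNAJC25 were 1.41-fold, 1.39-fold and 1.38-fold higher in J3T-2.

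On the J3T-1 side of class C the differences were smaller before centring. DNAJC18, an ER membrane protein, gave 109.3 in J3T-1 and 79.8 in J3T-2, or 1.37-fold higher in J3T-1, with its other probe set at a log2 ratio of -0.09. DNAJC2, the J-domain protein at the ribosome that pairs with HSPA14, gave 397.8 and 320.8, or 1.24-fold. DNAJC11 of the mitochondrial membrane gave 218.2 and 186.5, and 4 of its 4 probe sets above both floors were higher in J3T-1. DNAJC15, which regulates mitochondrial import, was also higher in J3T-1 by both probe sets, with log2 ratios of -0.15 and -0.53. The remaining measured class C genes lay between -0.19 for DNAJC16 and 0.45 for DNAJC4. They include DNAJC6, the clathrin-uncoating auxilin, at 44.7 and 60.7, DNAJC13 of endosomes at 339.8 and 413.0, and DNAJC10, an ER reductase, at 933.8 and 1053.0. DNAJC12, DNAJC22, DNAJC27 and DNAJC5B were below the floor on both arrays.

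Some members were grouped by where the proteins work: mitochondrion, ER, vesicles, and nucleus, ribosome or RNA. None of these lists held a 2-fold difference, which 10.8% of all measured genes showed. HSPA2 and DNAJB5, the members past 2-fold, belong to none of the lists. The 9 measured members of the mitochondrial list lay within 1.5-fold, as did 72.5% of all genes, from -0.23 for HSPA9 to 0.45 for DNAJC4, with a median of 0.0034. The 7 measured members placed in the ER ran from -0.65 for DNAJB12 to 0.63 for DNAJC25, these being the only ER members past 1.5-fold and 5 of 7 (71.4%) lying within it. The 6 members with nuclear, ribosomal or RNA roles ran from -0.31 for DNAJC2 to 0.96 for DNAJC17, with DNAJC9 and DNAJC17 past 1.5-fold and 4 of 6 (66.7%) within it. The 2 measured members of vesicle traffic, DNAJC6 and DNAJC13, had log2 ratios of 0.44 and 0.28.

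The transcription factors that drive the family were measured at modest signals. HSF1, the main activator of heat shock genes, gave 136.8 (J3T-1) and 122.0 (J3T-2), and its 3 probe sets ran from -0.17 to 0.05 in log2 ratio. HSF2, a related factor active in development, gave 546.9 and 381.4, or 1.43-fold higher in J3T-1, and 5 of its 5 probe sets above both floors were higher there. HSF4, known from the lens, gave 66.6 and 40.1, or 1.66-fold higher in J3T-1, and HSF2BP, which binds HSF2, gave 136.7 and 227.5, or 1.66-fold higher in J3T-2. None of the 5 measured genes of this list reached 2-fold, which 10.8% of all measured genes did. Of 17 measured textbook targets of HSF1, a list that overlaps the members, CRYAB alone (5.88%) differed by 2-fold or more, and the median log2 ratio was 0.06. A single gene of 17 is too few to set this share apart from the same 10.8%. Several of the 17, such as HSPA8, HSP90AA1 and HSPD1, had signals of at least 1000 on both arrays. Of the 691 genes that bright, only 7 passed 2-fold on the J3T-2 side and 5 on the J3T-1 side. The 10.8% is therefore not a like background for this list.

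Partners of HSP70 outside the members included a large difference. BAG2, which releases nucleotide from HSP70 and restrains the ubiquitin ligase STUB1, read 128.7 on the J3T-1 array and 556.6 on the J3T-2 array, or 4.32-fold higher in J3T-2, from 1 _s_at probe set. ST13, also called HIP, which steadies HSP70 with its client, gave 870.7 and 1601.8, or 1.84-fold, with 1.67-fold by the second probe set. The other 12 measured HSP70 partners, among them BAG1, BAG3, STUB1 and GRPEL1, lay between -0.15 and 0.57 in log2 ratio by the brightest probe set. Other probe sets reached 0.72 for BAG3, 0.63 for HYOU1, -0.34 for STUB1 and -0.27 for BAG5. The list of 14 had a median of 0.12, and BAG2 alone passed 2-fold, 7.14% of the list where 7.28% of all genes passed on that side.

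By the brightest probe set, 15 of 16 measured genes on the list of HSP90 partners (93.8%) lay within 1.5-fold, against 72.5% of all genes. AHSA1, CDC37, FKBP4, NUDC and SUGT1 lay between -0.07 and 0.06 in log2 ratio, and PTGES3, the p23 cochaperone, was the highest at 0.52. The list also holds TRAP1, at -0.23, which is itself an HSP90 of mitochondria rather than a partner. Other probe sets reached -0.72 for TOMM34, -0.62 for AHSA1 and 0.71 for CDC37. The exception was UNC45B, the myosin chaperone of striated muscle, with signals of 67.7 and 11.9, the second under the floor, and so at least 3.08-fold higher in J3T-1. Its other 2 probe sets were near the floor in J3T-1 and below it in J3T-2, and the median over its probe sets was -0.29. Subunits of TRiC, the cytosolic chaperonin that folds actin and tubulin, ranged from -0.07 to 0.33 by the brightest probe sets of 7 measured genes, but another probe set of CCT8 gave 1.25 and others of CCT2 and CCT4 gave up to 0.51 and 0.48. Prefoldin and its relatives, which hand clients to TRiC, ranged from -0.01 to 0.51 by the same rule over 7 genes, with up to 0.78 by another probe set of PDRG1. Of the J-domain proteins with other symbols, SEC63 of the ER translocon gave 288.6 and 450.2, or 1.56-fold higher in J3T-2, and HSCB and GAK lay at 0.37 and 0.06.

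**Figure D4:**
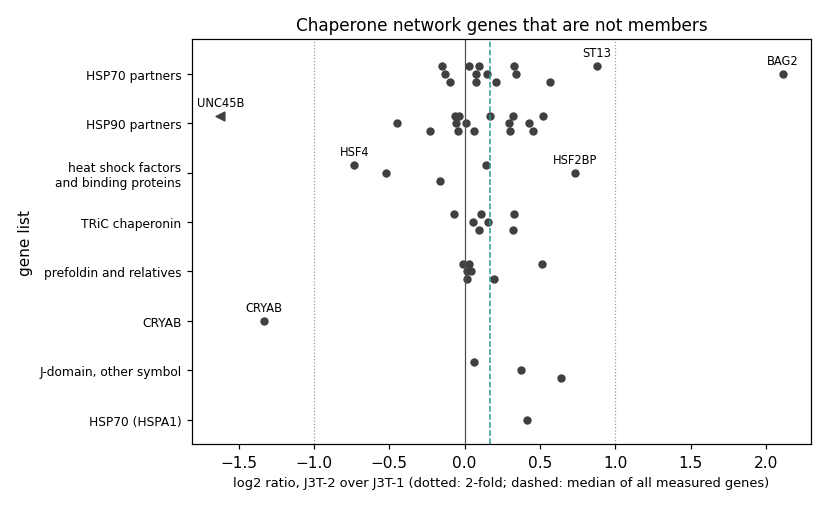
Log2 ratio of J3T-2 over J3T-1 (x axis) for measured chaperone network genes that are no members, by list, 1 point per gene (its brightest probe set), with a left-pointing triangle for the lower bound of UNC45B, dotted lines at 2-fold and a dashed line at the median of all measured genes. BAG2 at 2.11 and, on the other side, CRYAB at -1.33 and UNC45B lie outside the 2-fold lines, while the TRiC and prefoldin genes stay within -0.07 to 0.51.

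Genes beside the members and partners that lay far apart were then read off in the order of RefSeq, which placed 42 of the 43 measured members. The 10 nearest measured genes of HSPA2 had a median log2 ratio of 0.35 and 4 of them passed 1.5-fold on the J3T-2 side, with SYNE2 the highest at 1.89, below the 2.65 of HSPA2. Around DNAJC7 all 10 neighbours were higher in J3T-2, with a median of 0.56 and a lowest value of 0.24, close to the 0.66 of DNAJC7 itself. Around ST13 all 10 were higher in J3T-2 as well, with a median of 0.73 against the 0.88 of ST13. Around BAG2 the median was 0.02, and around DNAJB4 it was 0.21. It was -0.05 around DNAJB5, 0.01 around DNAJC25, 0.09 around DNAJC9 and 0.25 around DNAJC17. There 3, 5, 6 and 7 of 10 neighbours were higher in J3T-2. Around UNC45B, DNAJB12 and HSPB2, higher in J3T-1 by their brightest probe sets, it was 0.23, 0.12 and 0.41. No other gene read off had all 10 neighbours higher in J3T-2, but some came close. HSPB1 and HSP70 had 9 of 10 higher in J3T-2, with medians of 0.23 and 0.35. HSPB8, itself at 0.54, had 8 of 10 and a median of 0.46. HSPB2, lower in J3T-2, also had 8 of 10. DNAJC7 and ST13 thus lay in stretches where each of the 10 neighbours was higher in J3T-2, as 65.4% of all measured genes were, and each also lay above the median of all genes. The part of these stretches in the values of DNAJC7 and ST13 was not tested.

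**Figure D5:**
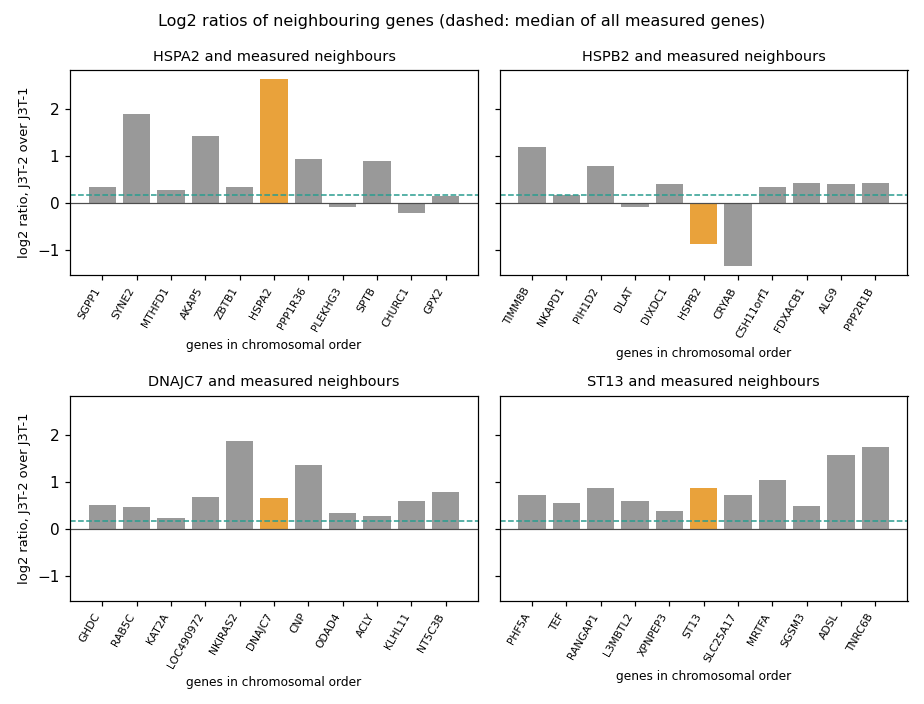
Log2 ratio of J3T-2 over J3T-1 (y axis) of HSPA2, HSPB2, DNAJC7 and ST13 (orange bars) and of the 5 nearest measured genes on each side (grey bars) in chromosomal order, with a dashed line at the median of all measured genes. HSPB2 and its neighbour CRYAB point down among neighbours that mostly point up, and all bars around DNAJC7 and ST13 point up.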

How the data were processed

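The deposited series table holds a linear signal intensity for every probe set on each array, computed with MAS5, per the submitters' processing notes. The MAS5 version and scaling target, and any detection calls, were not used here. Total RNA was purified on columns and 250 ng labelled with biotin in a 3' kit, per the labels' protocols. Genes were named through GEO's platform annotation from probe sets with 1 symbol, and 55 of the 57 member genes matched RefSeq by gene ID. That table's assembly, UU_Cfam_GSD_1.0, was used for gene order only. The brightest probe set was chosen by mean log2 signal before the floor was set. Each array's floor was its median over non-control probe sets. Log2 ratios are J3T-2 over J3T-1 without further scaling. A fold against a floored signal is a lower bound unless the other signal lies between the floors of the arrays. Because the floors differ, such a gene can get a ratio in the wrong direction. TREM2 (19.6 and 14.1) is an example, with a log2 ratio of 0.17 towards J3T-2. Such genes count as higher in J3T-2 in the shares of all measured genes. The number of arrays limits the precision.

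Named were all measured members at least 2-fold apart, in each family the 4 largest ratios and the 2 brightest, HSF1 and HSF2, and list genes at least 2-fold apart or the largest of their list. Further members were named after their values were seen. The members, lists and rules were chosen with earlier results of these data known. Alternatives were 3 scalings, 3 floors and 2 probe set rules, with 1 more, the choice of probe set after the floor, added after seeing the data. Simulated arrays with differences planted in the brighter measured genes were used to check the counting rule. They held no spread between cultures and no planted differences in dim genes, so they do not cover these. The tools were numpy 2.4.6, pandas 2.3.3, matplotlib 3.10.9 and, for loess, statsmodels 0.14.6, under Python 3.11.15.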

Additional observations from a re-analysis of the deposited data

How the results depend on the processing

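The count of members past 2-fold on the J3T-2 side was 2 and fell to 1 (HSPA2) with centring on the median, quantile normalization, loess, the floor at the 75th percentile and no floor, and to 0 without _x_at and _s_at probe sets, where neither HSPA2 nor DNAJB5 has a value. On the J3T-1 side it rose from 0 to 1 with centring, quantile normalization and loess, in each case HSPB2, and with the floor at the 25th percentile, where it was DNAJB13. The median of the members ran from -0.11 to 0.08 and stayed below that of all genes in all 9 alternatives, by 0.04 to 0.11. It changed sign under the 3 scalings, which take off the shift of 0.17. The DNAJB median (-0.11 to 0.14) changed sign in 6 alternatives and the HSPB median (-0.11 to 0.16) in 3. HSPA2 was at least 2-fold higher in J3T-2 in the 8 alternatives that gave it a value, as was BAG2, and CRYAB likewise in J3T-1. Of 35 single genes followed, 13 changed sign in at least 1 alternative, most of them with ratios near 0. No paired analysis was possible because each subclone has 1 array.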

Other observations

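SERPINH1, the collagen chaperone of the ER that is induced with the heat shock genes, read 212.1 on the J3T-1 array and 344.7 on the J3T-2 array. The difference was 1.63-fold, from 1 _s_at probe set above both floors, and 19.7% of all measured genes passed 1.5-fold on that side. The collagen gene COL1A2 gave 3356.0 and 5736.0, or 1.71-fold by its brightest probe set and up to 4.42-fold by the 3 others. The other collagen gene, COL1A1, differed by 5.87-fold and 8.12-fold over its probe sets. A link between SERPINH1 and the collagen genes was not tested. Probe sets with more than 1 symbol were not members. The bright one of the 2 that name HSP90AA1 beside another locus had signals of 4348.3 and 4421.8, as close as the member probe set of HSP90AA1.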
